A study of Mus musculus with 2 samples.

Results

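The 35 genes described here encode the machinery that stores, docks, primes and fuses synaptic vesicles. They were chosen by name, as the genes whose symbol in the deposited gene table is Syn1, Syn2, Syn3, Snap25, Syt1, Syt2, Syt4, Syt5, Syt7, Syt11, Stx1a, Vamp1, Vamp2, Stxbp5, Unc13a, Unc13b, Unc13c, Rims1, Rims2, Rims3, Rimbp2, Bsn, Pclo, Cplx1, Cplx2, Sv2a, Sv2b, Sv2c, Syp, Nsf, Napb, Rab3a, Rph3a, Erc2 or Sncb. All 35 symbols were found among the 32285 genes of the table. The study sequenced single nuclei from the hippocampus of C57BL/6J mice sampled at an age of 6 weeks. Every mouse had received an adeno-associated virus (AAV) in the cerebral ventricles at postnatal day 0. The AAV-STOP group, the control, got a human MAPT transcript with a stop codon near its start, so that no tau protein is made. In the AAV-TAU group the transcript encoded the whole 2N4R form of human tau, with no mutation. Hippocampi of 3 mice were pooled into 1 library per group, so the differences below have no replicate check: no spread between mice can be computed, no test was made, and every interval covers counting error only.

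Neurotransmitter release rests on SNARE proteins: synaptobrevins on the vesicle (Vamp1, Vamp2) pair with syntaxin (Stx1a) and SNAP-25 (Snap25) on the plasma membrane, and the complex pulls the membranes together. Synaptotagmins sense calcium and complexins hold the assembled complex until calcium arrives. A protein scaffold at the active zone, made of RIM, RIM-binding protein, Munc13, ELKS, bassoon and piccolo, docks and primes the vesicles. In the hippocampus, several of these proteins come in paralogues that differ between principal neurons and interneurons.

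The AAV-STOP library held 20265 barcodes with a median of 5750 unique molecular identifiers (UMIs), and AAV-TAU held 19596 with a median of 5119. The libraries shared 116 barcodes. After removal of doublets, 17960 and 17458 nuclei were clustered without the 35 genes, and classes were named from marker genes, hence "granule-like" and so on. Rebuilt names may differ from those of the study. The classes compared held from 109 nuclei (CA2-like, AAV-TAU) to 5193 (granule-like, AAV-STOP), and 3154 and 3008 nuclei stayed in clusters without a name. No human tau sequence is in the gene table, so the labels could not be checked by the transgene. A level is given as CPM, the UMI count scaled to a class total of 1000000, with an exact 95% Poisson interval in parentheses. In each pair of levels AAV-STOP comes first. CPM depends on gene length in nuclei, so levels are compared between classes for 1 gene and not between genes.

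Summed over the 35 genes, the level was highest in CA3-like nuclei (14159 and 13758 CPM) and was 12840.4 and 12768 CPM in granule-like, 10902 and 11061 CPM in CA1-like and 12412 and 12178 CPM in inhibitory-like nuclei. Oligodendrocyte-like nuclei held 3571 and 4305 CPM and astrocyte-like nuclei 4011 and 4485 CPM. The summed level was thus lower in these glia than in the main neurons in both libraries. Gene by gene the contrast was less general: in both libraries 19 of the 35 were higher in granule-like nuclei than in each of astrocyte-like, oligodendrocyte-like and microglia-like nuclei, and 16, 16 and 19 were in CA1-like, CA3-like and inhibitory-like nuclei. Syt4, Syt5, Syt11, Stx1a, Vamp1, Vamp2, Unc13c, Sv2a, Syp, Napb, Rab3a and Sncb were not above all 3 glial classes in any of these 4.

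**Figure D1:**
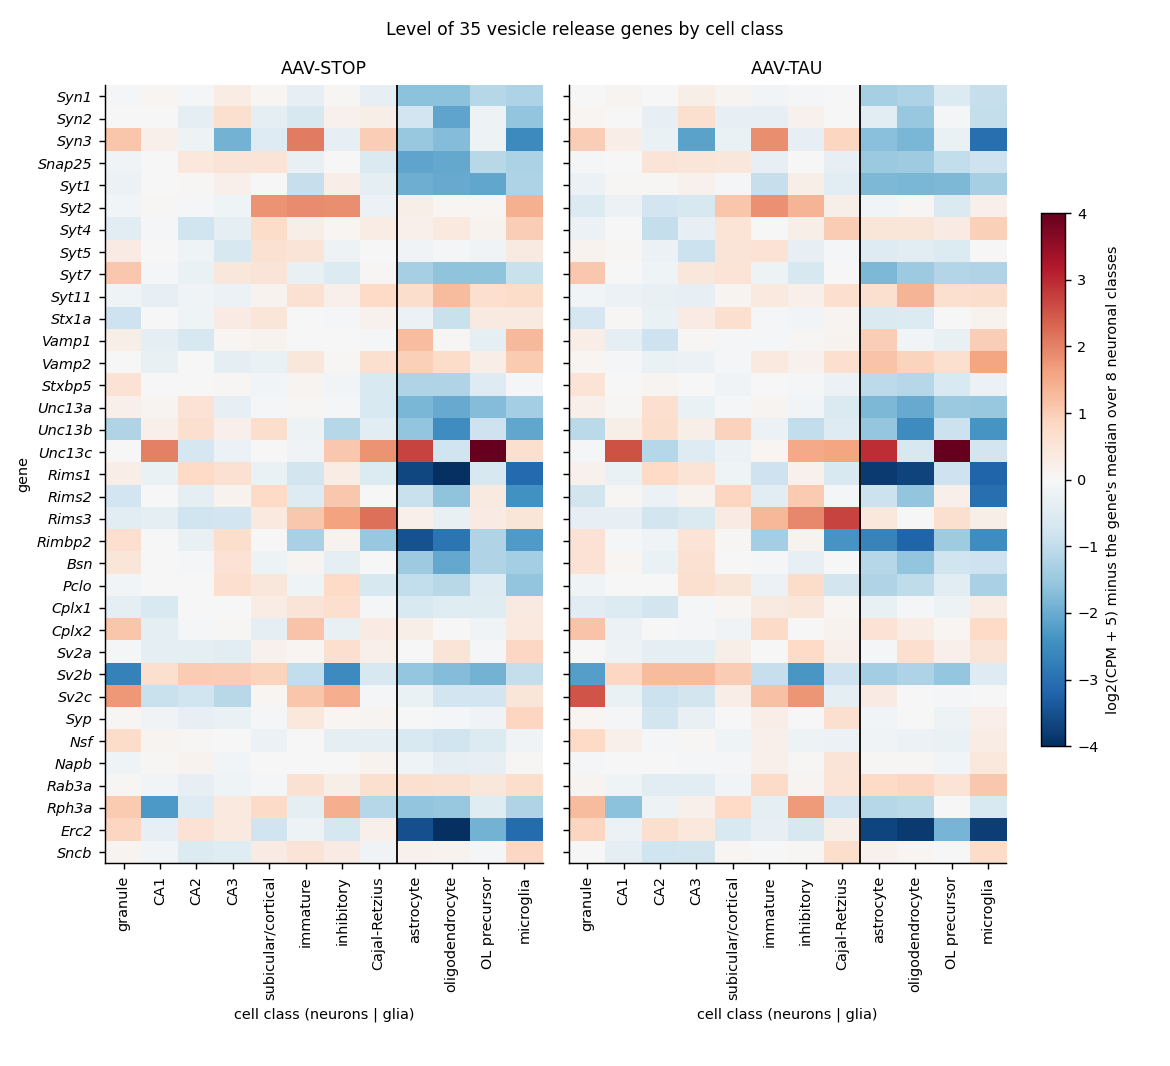
Level of each of the 35 genes in 8 neuronal and 4 glial classes of each library, as log2(CPM + 5) minus the gene's median over the 8 neuronal classes (red higher, blue lower, colours capped at 4 units). Sv2b is blue in granule-like and inhibitory-like nuclei, where Sv2c is red, and Unc13c is darkest in oligodendrocyte precursor-like nuclei.

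Among the fusion genes, Snap25 was high in each neuronal class. Its level was 715 and 744 CPM in granule-like, 779 and 782 CPM in CA1-like and 790.4 and 788 CPM in inhibitory-like nuclei. CA3-like nuclei were higher, at 1114 CPM (1089.9 to 1138) in AAV-STOP and 1104 CPM (1079 to 1129) in AAV-TAU. Stx1a was lowest in granule-like nuclei, at 13.4 and 16.4 CPM, against 23.6 to 48.1 CPM in the other neuronal classes. Vamp1 ranged from 7.87 to 22.3 CPM and Vamp2 from 32.3 to 90.2 CPM over the 8 neuronal classes, both libraries counted. Neither synaptobrevin gene was lower in microglia-like nuclei, which had 46.7 and 40.2 CPM of Vamp1 and 95.7 and 174 CPM of Vamp2.

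Nsf encodes the ATPase that takes spent SNARE complexes apart. Its level was highest in granule-like nuclei (641 and 694 CPM) and lowest among the 4 main neuronal classes (granule-like, CA1-like, CA3-like and inhibitory-like) in the inhibitory-like nuclei (295 and 338 CPM). Napb, the SNAP adaptor through which the ATPase binds, ranged only from 70.8 to 88.4 CPM over the 4 main classes. Stxbp5, or tomosyn, competes with synaptobrevin for syntaxin. It was highest in granule-like nuclei (283 and 266 CPM), while CA1-like, CA3-like and inhibitory-like nuclei held 172 to 194 CPM.

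The calcium sensors showed a division between cell types. Syt1, the fast sensor of most forebrain synapses, was lowest in immature neuron-like nuclei (1824 and 1774 CPM) and highest in inhibitory-like nuclei (4162 and 3989 CPM). Syt2, the fast sensor of fast-spiking interneurons, was near the floor in granule-like (3.14 and 3.03 CPM), CA1-like (4.09 and 4.94 CPM) and CA3-like nuclei (2.84 and 2.64 CPM). It reached 26.8 CPM (23.6 to 30.3) in AAV-STOP and 25.3 CPM (22.0 to 28.9) in AAV-TAU in inhibitory-like nuclei and 27.9 and 37.3 CPM in immature neuron-like nuclei. Syt7, a slower sensor with high calcium affinity, had the reverse order: 245 CPM (239 to 250.3) in AAV-STOP and 239 CPM (232 to 245) in AAV-TAU in granule-like nuclei, but 75.5 CPM (70 to 81.3) in AAV-STOP and 69.5 CPM (64.0 to 75.3) in AAV-TAU in inhibitory-like nuclei.

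Syt4 and Syt11, synaptotagmins that do not bind calcium in the usual way, were not confined to neurons. Syt11 was higher in oligodendrocyte-like nuclei (491 and 554 CPM) than in each of the 8 neuronal classes (159 to 357 CPM). Syt4 had 80.8 and 85.9 CPM in oligodendrocyte-like nuclei against 44.2 to 71.6 CPM in the 4 main neuronal classes. Syt5 ranged from 28.3 to 61.7 CPM in those 4 classes and was lowest in CA3-like nuclei.

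The complexins divided granule-like from inhibitory-like nuclei. Cplx2 was 162 CPM (158 to 167) in AAV-STOP and 180.0 CPM (174 to 186) in AAV-TAU in granule-like nuclei, and 54.7 and 66.5 CPM in CA1-like and 57.6 and 77.5 CPM in inhibitory-like nuclei. Cplx1 was 27.7 and 33.0 CPM in granule-like, 22.4 and 30.3 CPM in CA1-like and 62.3 and 65.2 CPM in inhibitory-like nuclei. CA3-like nuclei had 74.2 and 75.1 CPM of Cplx2 and 36.1 and 43.9 CPM of Cplx1. The highest of these classes was the granule-like one for Cplx2 and the inhibitory-like one for Cplx1, in both libraries. Over all 8 neuronal classes, Cplx2 was highest in immature neuron-like nuclei in AAV-STOP and in granule-like nuclei in AAV-TAU.

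At the active zone, the Munc13 priming proteins Unc13a, Unc13b and Unc13c had separate patterns. Unc13a ranged from 111 to 172 CPM over the 4 main neuronal classes. Unc13b was low in granule-like (63.9 and 64.7 CPM) and inhibitory-like nuclei (67.1 and 69.5 CPM), and higher in CA1-like (179 and 168 CPM), CA3-like (176 and 167 CPM) and subicular or cortical neuron-like nuclei (252 and 276 CPM). As an average over a class, Unc13c was highest outside neurons: oligodendrocyte precursor-like nuclei held 473 CPM (442 to 505) in AAV-STOP and 428 CPM (398 to 459.8) in AAV-TAU. Fibroblast-like nuclei had 257 and 189 CPM and astrocyte-like nuclei 84.4 and 95.8 CPM of Unc13c, against 8.56 and 7.37 CPM in granule-like nuclei.

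Within CA1-like nuclei Unc13c sat in 1 small cluster led by Vwc2l, Tshz2 and Cpa6. Tshz2 is on the marker list of subicular or cortical neurons. This cluster, 150 and 215 nuclei, held 718 and 647 CPM, above the average of the precursor-like class. The CA1-like clusters of 1379 and 1076 and of 898 and 873 nuclei held 3.72 and 3.56 CPM and 6.11 and 6.16 CPM. The bulk of CA1-like nuclei was therefore near the granule-like level.

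Rims1, which binds Rab3 on the vesicle and Munc13 at the membrane, was highest in CA2-like (1827 and 1769 CPM) and CA3-like nuclei (1610.5 and 1497 CPM), and had 869 and 846 CPM in CA1-like nuclei. Rims2 was highest in inhibitory-like nuclei (1049 and 1008 CPM) and lowest in granule-like nuclei (289.8 and 288 CPM). The short paralogue Rims3 was close to absent from granule-like (1.43 and 1.63 CPM) and CA3-like nuclei (0.135 and 0.586 CPM). It had 21.5 CPM (18.6 to 24.7) in AAV-STOP and 26.3 CPM (23.0 to 30.0) in AAV-TAU in inhibitory-like nuclei and 34.96 and 49.6 CPM in Cajal-Retzius-like nuclei. The Cajal-Retzius-like levels of Rims3 came from 131 and 170 nuclei and rested on fewer than 100 UMIs in each library.

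Erc2, an ELKS scaffold protein, was highest in granule-like nuclei (3191 and 3079 CPM), with 1397 and 1416 CPM in CA1-like and 1077 and 1079 CPM in inhibitory-like nuclei. Rimbp2, which links RIM to calcium channels, was 267 and 262 CPM in granule-like and 274 and 254 CPM in CA3-like nuclei, above CA1-like (163 and 166 CPM). The giant scaffolds differed in their order. Bsn (bassoon) was lowest of the 4 main classes in inhibitory-like nuclei (91.5 and 91.2 CPM), and Pclo (piccolo) was highest there (879.6 and 837 CPM against 466 and 453 CPM in granule-like nuclei).

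Of the proteins on the vesicle itself, the SV2 glycoproteins showed the sharpest division. Sv2b was 425 CPM (416 to 434) in AAV-STOP and 407 CPM (397 to 416) in AAV-TAU in CA1-like nuclei, and 554 and 553 CPM, 538 and 548 CPM and 505 and 466 CPM in CA2-like, CA3-like and subicular or cortical neuron-like nuclei. In granule-like nuclei it was 37.7 CPM (35.5 to 40.0) in AAV-STOP and 45.2 CPM (42.5 to 48.1) in AAV-TAU, and in inhibitory-like nuclei 42.3 and 41.8 CPM. Microglia-like nuclei, which have no synaptic vesicles, held 138 and 158 CPM, so the granule-like and inhibitory-like levels were not above that of a cell type without the organelle. Sv2c had the opposite order: 56.4 CPM (53.7 to 59.2) in AAV-STOP and 67.3 CPM (63.9 to 70.8) in AAV-TAU in granule-like and 45.4 and 37.5 CPM in inhibitory-like nuclei, against 4.92 and 5.36 CPM in CA1-like and 3.51 and 2.49 CPM in CA3-like nuclei. Sv2a was spread over all neurons, at 64.0 to 151 CPM.

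The start sites of this opposed pair also differ in letters. The windows run from 250 bases before to 50 after a RefSeq start of the gene and are RefSeq sequences on GRCm38.p6, shown 5′ to 3′ on the gene's strand. Capitals mark the GC box GGGCGG and the TATA box TATAAA, each searched on both strands. Sv2b lies at chr7:75309213-75309512 on the minus strand and Sv2c at chr13:96132528-96132827 on the minus strand, and each window spans the first transcribed bases of its gene.
Sv2b: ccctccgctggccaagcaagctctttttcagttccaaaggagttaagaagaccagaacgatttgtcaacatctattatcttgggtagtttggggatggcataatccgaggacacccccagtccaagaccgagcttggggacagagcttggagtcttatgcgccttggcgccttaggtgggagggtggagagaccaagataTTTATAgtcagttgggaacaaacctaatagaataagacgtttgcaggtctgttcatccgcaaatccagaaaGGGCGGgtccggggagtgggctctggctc
Sv2c: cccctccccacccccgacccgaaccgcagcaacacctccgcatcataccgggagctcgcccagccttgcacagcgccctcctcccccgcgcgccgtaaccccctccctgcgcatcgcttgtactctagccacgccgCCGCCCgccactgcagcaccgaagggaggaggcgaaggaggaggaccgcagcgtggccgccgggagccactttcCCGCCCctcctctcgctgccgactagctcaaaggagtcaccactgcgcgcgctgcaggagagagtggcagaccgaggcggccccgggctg
Of the 28 genes with a window, only Sv2b held TATAAA, a motif found in 13.6% of 32851 windows of all genes. Its GC content was 51.3% and that of the Sv2c window 71.7%, with a median of 52.7% over all windows. A GC box was present in 21 of the 28 (75.0%), against 35.7% of all windows. Only the window of Syn1 held the cyclic AMP response element TGACGTCA (1.79% of all windows), and those of Nsf and Unc13b held the E-box CACGTG (7.15%). For each of the 28 genes only the window nearest the start of the gene model was taken. The set of all windows was not reduced in this way, so the shares come from unlike sets. The windows taken for Cplx2 and Syt11 lie 68794 and 2564 bases from the start of the gene model, and the other 26 within 165 bases. No window was found for Syn3, Snap25, Syt4, Syt5, Syt7, Vamp2 and Rims2. These matches describe letters and were not tied to binding.

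Synapsins tether vesicles in the reserve pool. Syn1 was even over the 4 main neuronal classes, at 108 to 138 CPM, and Syn2 was highest in CA3-like nuclei (704 and 689 CPM). Syn3, the paralogue tied to developing neurons, was highest in immature neuron-like nuclei, at 634 CPM (597 to 672) in AAV-STOP and 569 CPM (529 to 611) in AAV-TAU. Granule-like nuclei followed among the main classes at 321 and 309.6 CPM, and CA3-like nuclei were lowest, at 35.7 and 30.9 CPM. The granule-like class was not uniform: its cluster of 4182 and 3227 nuclei had 367 and 361 CPM of Syn3 and its cluster of 1011 and 945 nuclei 168 and 167 CPM. Sv2c ran the other way in these clusters, at 50.9 and 63.6 CPM in the larger and 74.6 and 77.4 CPM in the smaller.

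Rph3a (rabphilin), an effector of Rab3, was 219.9 CPM (210.5 to 229.6) in AAV-STOP and 221 CPM (211 to 231) in AAV-TAU in inhibitory-like nuclei and 164 and 162 CPM in granule-like nuclei. CA1-like nuclei had 11.7 and 17.5 CPM, below the 23.4 and 28.3 CPM of oligodendrocyte-like nuclei. Syp (synaptophysin), an abundant vesicle membrane protein, ranged only from 114 to 159 CPM over the 4 main neuronal classes, and was 133 and 148 CPM in oligodendrocyte-like nuclei. Rab3a, the vesicle GTPase, ranged from 42.4 to 74.5 CPM and Sncb (beta-synuclein) from 30.3 to 76.7 CPM over the same classes.

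The inhibitory-like nuclei were clustered again to ask whether the paralogues divide among interneurons. Of 1410 and 1375 nuclei, 192 and 162 were named Pvalb-like, 292 and 370 Sst-like, 180 and 157 Vip-like, 241 and 217 Lamp5-like and 194 and 177 Cck-like, with 311 and 292 left without a name. Syt2 was 97.9 CPM (81.6 to 116) in AAV-STOP and 83.5 CPM (66.8 to 103) in AAV-TAU in Pvalb-like nuclei, the fast-spiking type. The other 4 named subclasses had at most 9.84 CPM of Syt2, and the unnamed nuclei 37.2 and 52.5 CPM. The unnamed nuclei included a cluster of 64 and 69 nuclei with both Syt2 and Pvalb among its leading genes. Cplx1 was also highest in Pvalb-like nuclei, at 82.5 CPM (67.6 to 99.6) in AAV-STOP and 116 CPM (95.7 to 138) in AAV-TAU. Sst-like nuclei had 72.3 CPM (61.1 to 85.0) of Cplx1 in AAV-STOP, an overlapping interval, and 64.5 CPM (54.7 to 75.6) in AAV-TAU. Cplx2 was lowest in Pvalb-like nuclei (30.1 and 32.0 CPM), with 108 and 128 CPM in Vip-like and 96.4 and 149 CPM in Cck-like nuclei.

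Lamp5-like nuclei, the neurogliaform type, stood out among the 5 named subclasses for 3 genes. Sv2c was 193 CPM (171 to 217) in AAV-STOP and 194 CPM (169.6 to 219.9) in AAV-TAU and at most 13.3 CPM in the other 4 named subclasses. The unnamed nuclei had 42.7 and 32.4 CPM of Sv2c. An inhibitory-like cluster led by Cpa6, Ano1 and Ano2 had 114 and 142 CPM. Rims1 was 2517 and 2263 CPM in Lamp5-like nuclei against 806 to 1394 CPM in the other 4 named subclasses. Rimbp2 was 406 and 444 CPM against 77.6 to 214 CPM. Pclo was highest in Cck-like nuclei, at 1485 CPM (1424 to 1548) in AAV-STOP and 1411 CPM (1346 to 1479) in AAV-TAU, and lowest in Lamp5-like nuclei (547 and 536 CPM). Among the named subclasses, Unc13c was highest in Sst-like nuclei (45.3 and 60.7 CPM) and was 0.771 and 0.971 CPM in Pvalb-like nuclei. The unnamed nuclei had similar levels of Unc13c (39.5 and 56.6 CPM), as had the cluster led by Cpa6, Ano1 and Ano2 (46.7 and 56.5 CPM). These 5 named subclasses kept the same top subclass for Syt2, Sv2c, Rims1, Rimbp2, Pclo, Cplx1 and Unc13c in both libraries. For Cplx1 the intervals of the Pvalb-like and Sst-like levels overlapped in AAV-STOP.

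**Figure D2:**
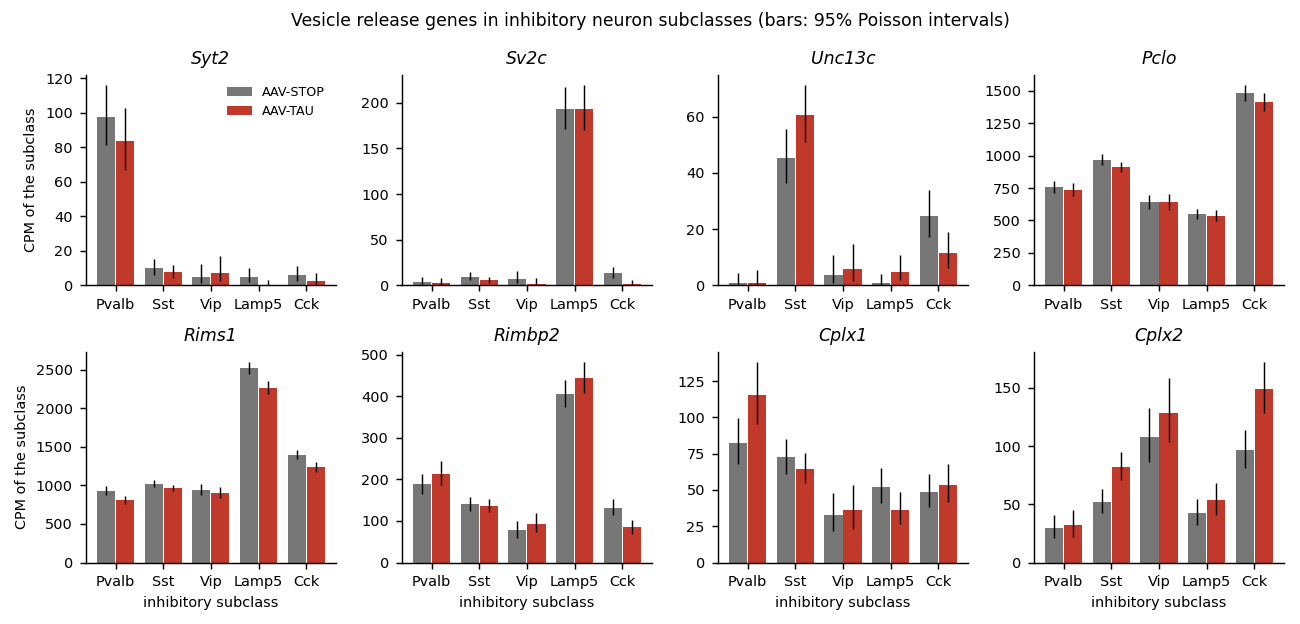
Levels of 8 genes in CPM of each inhibitory subclass, grey for AAV-STOP and red for AAV-TAU, with exact 95% Poisson intervals as lines. Syt2 stands in Pvalb-like and Sv2c in Lamp5-like nuclei in both libraries, and Pclo is highest in Cck-like nuclei.

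The comparison of AAV-TAU with AAV-STOP asks what full-length human tau changed. A gene was compared in a class if, in whichever library was higher, its level was at least 20 CPM and rested on at least 100 UMIs. It was counted as past the fold where the lower level was 0.8 times the higher or less, upward where AAV-TAU was the higher. Genes that pass only through the library where they are high had to differ, so the counts are of the genes compared and not of all 35. In granule-like nuclei 21 of 31 genes were higher in AAV-TAU, where 67.6% of all 7075 genes compared were. Of them 3 were past the fold upward (7.22% of all genes) and 0 downward (0.141%). CA1-like nuclei had 22 of 30 higher (66.8% of all genes), 5 past the fold upward (6.67%) and 0 downward (0.232%).

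CA3-like nuclei had 13 of 30 higher (63.4%), 2 past the fold upward (8.27%) and 1 downward (1.07%). Inhibitory-like nuclei had 21 of 34 higher (60.6%), 5 past the fold upward (7.96%) and 0 downward (1.43%). Taking the classes in this order (granule-like, CA1-like, CA3-like, inhibitory-like), the median log2 ratio (5 CPM added to both levels) over the genes compared was 0.06, 0.05, -0.02 and 0.03. Over all genes the medians were 0.05, 0.05, 0.05 and 0.04. By the median, the release genes as a list were therefore close to the background in granule-like, CA1-like and inhibitory-like nuclei. The count past the fold upward was above the share of all genes in CA1-like (5 of 30, 6.67%) and inhibitory-like nuclei (5 of 34, 7.96%). It was nearer to that share in granule-like (3 of 31, 7.22%) and CA3-like nuclei (2 of 30, 8.27%). With median-of-ratios scaling the counts higher in AAV-TAU were 14, 12, 8 and 14 in the 4 classes, beside 39.0%, 40.6%, 44.4% and 44.7% of all genes, so the balance of higher and lower turned with the scaling.

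**Figure D3:**
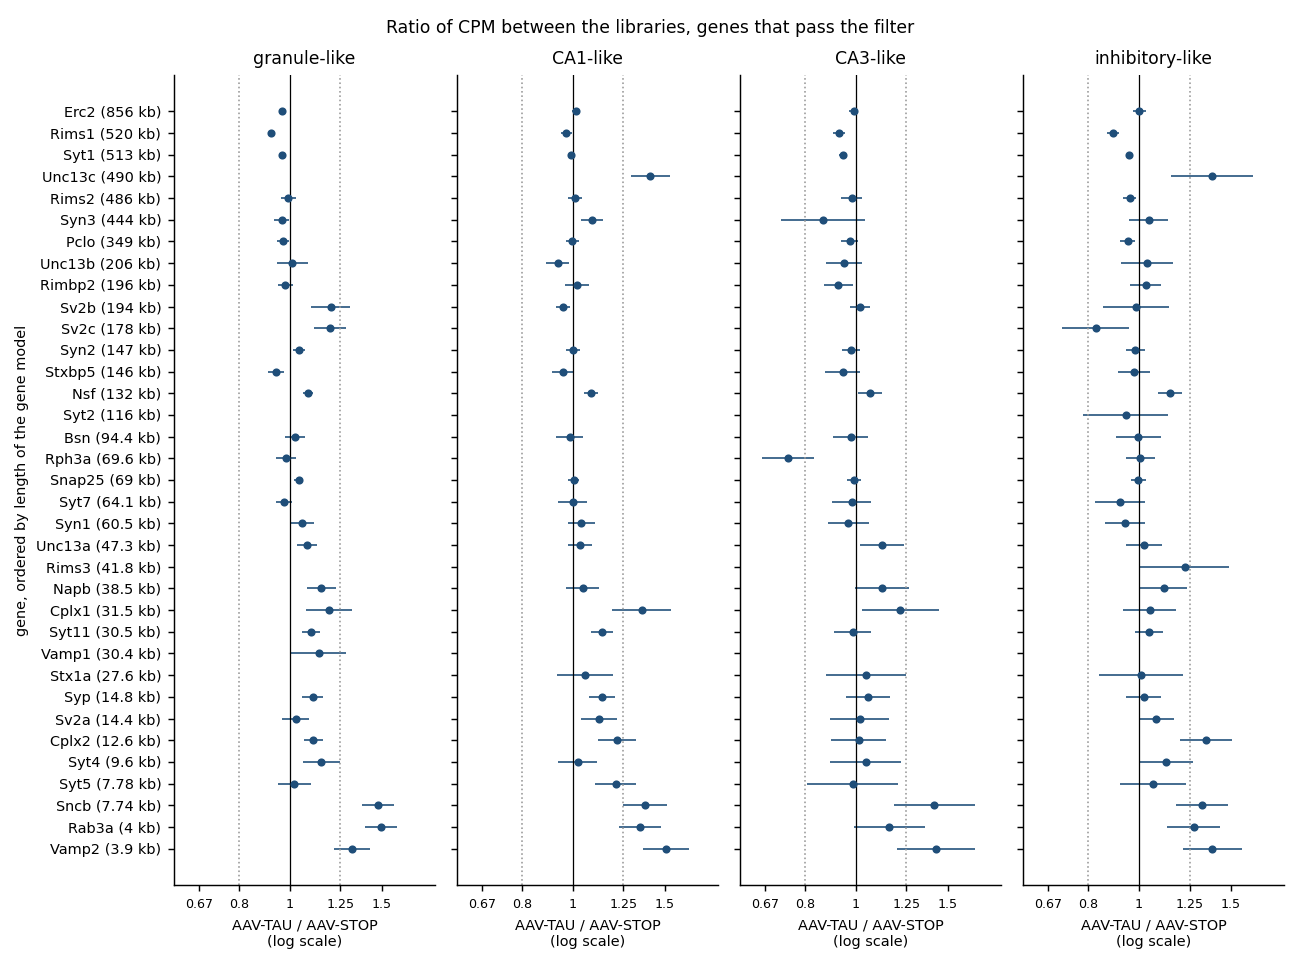
Ratio of CPM in AAV-TAU to AAV-STOP on a log scale for the genes that passed the filter in each of 4 neuronal classes, with exact 95% intervals for counting error, ordered by the length of the gene model. Dotted lines mark a ratio of 0.8 and its inverse. Vamp2, Rab3a and Sncb, at the bottom, lie to the right of 1 in each panel, the CA3-like interval of Rab3a reaching just below 1, and the longest genes lie near 1 except Unc13c.

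Vamp2 and Sncb were past the fold upward in all 4 main classes, 2 of the 28 genes compared in all 4, where 2.65% of 5887 genes were. Neither kept this under every alternative: Vamp2 had a ratio of 1.24 in granule-like nuclei with median-of-ratios scaling, and in inhibitory-like nuclei Vamp2 had 1.23 and Sncb 1.20 among nuclei at or below the class median of mitochondrial share. With nuclei thinned to equal depth the inhibitory-like ratio of Sncb was 1.20. Vamp2 was 43.8 CPM (41.4 to 46.3) in AAV-STOP and 57.7 CPM (54.6 to 61.0) in AAV-TAU in granule-like nuclei, a ratio of 1.32 (1.22 to 1.43). Its ratio was 1.51 (1.36 to 1.67) in CA1-like, from 34.4 and 52.0 CPM, 1.42 (1.20 to 1.69) in CA3-like and 1.38 (1.21 to 1.58) in inhibitory-like nuclei. The inhibitory-like rise of Vamp2 was not seen in Sst-like nuclei, at 1.00 (0.765 to 1.32) on 104 and 121 UMIs. In the other 4 named subclasses the ratio of Vamp2 was 1.33 to 1.68, on 39 to 92 UMIs per library. Of these, the Pvalb-like and Vip-like intervals included 1. The unnamed inhibitory nuclei had 1.51 (1.15 to 1.99). Sncb, which is enriched at presynaptic terminals, was 49.2 CPM (46.7 to 51.8) in AAV-STOP and 72.6 CPM (69.1 to 76.3) in AAV-TAU in granule-like nuclei, a ratio of 1.48 (1.37 to 1.59). In CA1-like, CA3-like and inhibitory-like nuclei the ratio of Sncb was 1.37 (1.248 to 1.51), 1.41 (1.18 to 1.69) and 1.32 (1.18 to 1.48).

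Rab3a was past the fold upward in 3 of the 4 classes. It was 49.8 CPM (47.3 to 52.4) in AAV-STOP and 74.5 CPM (70.9 to 78.1) in AAV-TAU in granule-like nuclei, a ratio of 1.50 (1.39 to 1.61). The ratio was 1.34 (1.23 to 1.47) in CA1-like, 1.27 (1.13 to 1.43) in inhibitory-like and 1.16 (0.991 to 1.36) in CA3-like nuclei, where the interval reached below 1. Among the inhibitory subclasses the ratio of Rab3a was 2.10 (1.50 to 2.96) in Cck-like nuclei, on 57 and 98 UMIs. In the other 4 named subclasses it was 1.07 to 1.36, and each interval included 1. The call in CA1-like nuclei was lost with nuclei thinned to equal depth, at 1.14, and that in inhibitory-like nuclei with median-of-ratios scaling, at 1.22, so the granule-like call alone was kept under each alternative run. The windows at the start sites of Rab3a (chr8:70754453-70754752, plus strand) and Sncb (chr13:54766546-54766845, minus strand) are shown because these genes differed in the same direction. They come from the same RefSeq table, with GC boxes in capitals.
Rab3a: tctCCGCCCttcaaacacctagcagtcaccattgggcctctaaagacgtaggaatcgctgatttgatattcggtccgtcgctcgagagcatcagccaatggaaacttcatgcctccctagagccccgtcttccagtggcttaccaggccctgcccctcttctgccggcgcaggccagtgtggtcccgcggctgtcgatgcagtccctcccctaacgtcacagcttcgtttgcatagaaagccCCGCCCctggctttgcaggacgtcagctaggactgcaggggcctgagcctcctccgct
Sncb: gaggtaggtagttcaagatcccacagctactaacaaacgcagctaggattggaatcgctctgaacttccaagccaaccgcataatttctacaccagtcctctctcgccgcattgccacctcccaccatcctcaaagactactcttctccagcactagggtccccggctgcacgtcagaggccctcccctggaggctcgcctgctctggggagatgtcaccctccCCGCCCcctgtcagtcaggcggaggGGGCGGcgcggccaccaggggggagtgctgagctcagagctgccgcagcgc
Both windows hold a GC box 2 times and neither holds TATAAA.

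All of Vamp2, Rab3a and Sncb are short genes, of 3.90, 4.00 and 7.74 kb, and short genes as a whole were higher in AAV-TAU. Among all genes with a gene model under 20 kb, 22.2% were past the fold upward in granule-like nuclei, and 20.2%, 20.9% and 24.1% in the other three classes. Of the 8 release genes under 20 kb that were compared, 3, 3, 2 and 4 were. Among all genes of 100 kb or more the shares were 1.20%, 2.11%, 1.80% and 0.378%. The release genes of that length had 0 of 13, 1 of 13, 0 of 12 and 1 of 15, Unc13c in both classes with 1. The median share of mitochondrial UMIs was also higher in AAV-TAU, at 0.169 and 0.268% in granule-like and 0.120 and 0.213% in CA1-like nuclei. Among nuclei at or below the class median of that share, the ratios of Vamp2, Sncb and Rab3a were 1.26, 1.62 and 1.56 in granule-like nuclei and 1.65, 1.42 and 1.33 in CA1-like nuclei.

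Release genes also differed between the libraries in glia. Clusters with glial markers but a high level of Rbfox3, a neuronal gene, had been left without a name. Those with microglial markers held 154 and 44 and 102 and 15 nuclei, and that with oligodendrocyte markers 52 and 0. A cluster of 30 and 458 nuclei, with markers of oligodendrocytes and astrocytes, also stayed without a name. The part of this naming step in the glial ratios was not tested. In oligodendrocyte-like nuclei 25 of 28 release genes were higher in AAV-TAU (58.1% of all genes) and 11 were past the fold upward (17.0%). Astrocyte-like nuclei had 15 of 21 higher (58.9%) and 7 past the fold upward (17.9%), and microglia-like nuclei 11 of 13 (73.7%) and 8 (24.7%). With median-of-ratios scaling 23, 13 and 11 release genes were higher in these 3 classes, beside 46.0%, 55.8% and 78.2% of all genes, and 11, 6 and 8 were past the fold. In oligodendrocyte-like nuclei Vamp2 was 75.8 and 106 CPM, Rab3a 77.0 and 125 CPM and Sncb 49.5 and 78.5 CPM, ratios of 1.40 (1.23 to 1.6), 1.62 (1.43 to 1.84) and 1.59 (1.35 to 1.86). In microglia-like nuclei the ratio of Vamp2 was 1.82 (1.29 to 2.62).

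Snap25 had different ratios in neurons and glia. Its ratio was 1.04 (1.02 to 1.06) in granule-like and 1.00 (0.981 to 1.03) in CA1-like nuclei, but 1.58 (1.46 to 1.72) in oligodendrocyte-like nuclei, where it was 185 CPM (173 to 197) in AAV-STOP and 292 CPM (278 to 306) in AAV-TAU. Astrocyte-like nuclei had 179.7 and 276 CPM, a ratio of 1.54 (1.34 to 1.77). The ratio of Nsf was 1.52 (1.41 to 1.64) in oligodendrocyte-like and 1.08 (1.06 to 1.11) in granule-like nuclei. Rbfox3, a nuclear protein gene of neurons that is not among the 35, was 36.6 and 53.1 CPM in oligodendrocyte-like and 49.2 and 67.4 CPM in astrocyte-like nuclei, and its part in these ratios was not tested.

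**Figure D4:**
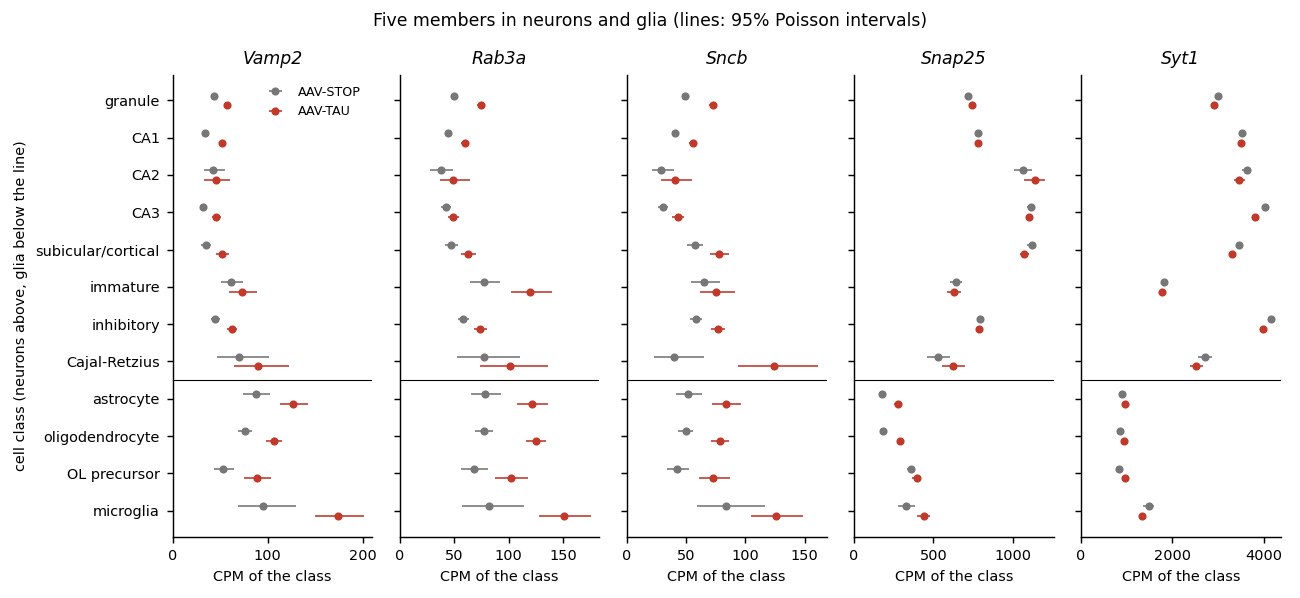
Levels of 5 genes in CPM of each class, neurons above and glia below the line, grey for AAV-STOP and red for AAV-TAU, with exact 95% Poisson intervals. Vamp2, Rab3a and Sncb are as high in glia as in most neurons and red lies to the right of grey in all 12 classes, while Snap25 and Syt1 are higher in each neuronal class than in each glial class.

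Shares of nuclei with a UMI were set beside those of a cell type without synaptic vesicles. A UMI of Snap25 was found in 95.2% and 95.8% of granule-like nuclei, against 39.5% and 52.4% of oligodendrocyte-like nuclei, with median depths of 5366 and 5126 and of 2601 and 2398 UMIs. With every nucleus thinned to 1500 UMIs the Snap25 shares were 63.2% and 66.0% against 24.0% and 36.8%. For Vamp2 the shares were 21.0% and 25.7% in granule-like and 19.4% and 24.1% in oligodendrocyte-like nuclei, and after thinning 6.59% and 8.49% against 10.1% and 14.3%. Thinned shares of Rab3a were 7.78% and 10.6% against 11.8% and 18.6%, and of Sncb 7.39% and 10.0% against 7.80% and 12.2%. After thinning, the granule-like shares of Vamp2, Rab3a and Sncb were thus below those of a cell type without synaptic vesicles, while the unthinned shares of Vamp2 were slightly above. Whether their glial UMIs come from free RNA or from the glia was not tested. In inhibitory-like nuclei the thinned shares of Sncb were 9.29% and 11.3%, above the oligodendrocyte-like share in AAV-STOP and below it in AAV-TAU.

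Other release genes past the fold were few. Unc13c was 50.8 CPM (47.7 to 54.1) in AAV-STOP and 71.6 CPM (67.6 to 75.8) in AAV-TAU in CA1-like nuclei, a ratio of 1.41 (1.29 to 1.53). Inside its main cluster, described above, the ratio was 0.900 (0.823 to 0.985), and without that cluster and the one led by C1qtnf7 the CA1-like ratio was 1.01. In inhibitory-like nuclei the ratio of Unc13c was 1.38 (1.15 to 1.65), and it was 0.660 with finer clusters and 0.925 with nuclei thinned to equal depth. Cplx1 was 22.4 and 30.3 CPM in CA1-like nuclei, a ratio of 1.36 (1.19 to 1.54). Cplx2 was 57.6 and 77.5 CPM in inhibitory-like nuclei, a ratio of 1.35 (1.20 to 1.51), which was 1.03 with nuclei thinned to equal depth and 1.22 with finer clusters.

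Of the genes compared, only Rph3a was at 0.8 times or less in a main class. In CA3-like nuclei it was 102 CPM (94.8 to 109) in AAV-STOP and 75.5 CPM (69.2 to 82.4) in AAV-TAU, a ratio of 0.741 (0.662 to 0.830). Granule-like and inhibitory-like nuclei had ratios of 0.985 (0.943 to 1.03) and 1.01 (0.944 to 1.07). In CA1-like nuclei Rph3a was below the filter on level, at 11.7 CPM (10.2 to 13.3) in AAV-STOP and 17.5 CPM (15.6 to 19.7) in AAV-TAU.

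The long genes with the deepest counts differed by little. Syt1 was lower in AAV-TAU in each of the 8 neuronal classes, by ratios from 0.930 in Cajal-Retzius-like to 0.992 in CA1-like nuclei. It was 1 of 11 release genes compared in all 8, where 13.6% of 552 genes were lower throughout. Rims1 was 1289.6 CPM (1267 to 1313) in AAV-STOP and 1152 CPM (1129 to 1175) in AAV-TAU in inhibitory-like nuclei, a ratio of 0.893 (0.869 to 0.917), and its ratios were 0.923 (0.908 to 0.938) in granule-like, 0.929 (0.905 to 0.954) in CA3-like and 0.972 (0.951 to 0.995) in CA1-like nuclei. Erc2 and Pclo had ratios of 0.965 (0.955 to 0.974) and 0.972 (0.947 to 0.998) in granule-like nuclei. Unc13a was higher in AAV-TAU in 7 of 7 neuronal classes compared, with ratios of 1.02 to 1.15. With median-of-ratios scaling Unc13a was higher in 5 of the 7, and Syt1 was lower in all 8. That scaling lowers AAV-TAU levels in the main classes, so it was no check on Syt1 there.

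The paralogues with sharp cell type patterns kept them. Sv2b had a ratio of 0.958 (0.927 to 0.989) in CA1-like and 1.02 (0.974 to 1.07) in CA3-like nuclei, and of 1.20 (1.10 to 1.31) in granule-like nuclei, where it was low. Sv2c had 1.19 (1.11 to 1.28) in granule-like and 0.827 (0.713 to 0.959) in inhibitory-like nuclei. Within the inhibitory-like class, the clusters richest in Sv2c had ratios of 0.965 (0.808 to 1.15) and 1.247 (0.879 to 1.76), the latter with 105 and 59 nuclei, and the Lamp5-like subclass had 1.00 (0.839 to 1.20). Where Sv2c was low, the cluster led by Adarb2 had a ratio of 0.159 (0.0407 to 0.454), on 29 and 4 UMIs. The Cck-like subclass had 0.122 (0.0138 to 0.502), on 20 and 2 UMIs. Syn3 had 0.965 (0.935 to 0.995) in granule-like and 0.898 (0.818 to 0.985) in immature neuron-like nuclei. Syt2 and Rims3, compared in inhibitory-like nuclei, had 0.943 (0.782 to 1.14) and 1.22 (1.01 to 1.49). Apart from the Sv2c ratios on few UMIs, each of these shifts was small beside the differences between classes given above.

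A list of 93 other genes of the vesicle cycle was read in the same way, beside the shares of all genes given above. In granule-like nuclei 49 of 72 compared were higher (67.6% of all genes) and 4 were past the fold upward (7.22%). Among them were Ap2m1 and Ap2s1, subunits of the AP-2 clathrin adaptor, with ratios of 1.35 (1.24 to 1.48) and 1.39 (1.22 to 1.59), and the SNAP adaptor Napg, with 1.255 (1.19 to 1.33). CA1-like nuclei had 41 of 71 higher (66.8%) and 1 past the fold upward (6.67%), Ap2m1, at 28.6 and 35.7 CPM. CA3-like nuclei had 35 of 67 higher (63.4%) and 1 past the fold upward (8.27%), the clathrin light chain gene Clta at 1.27 (1.12 to 1.44). In inhibitory-like nuclei 39 of 72 were higher (60.6%), with 1 past the fold upward (7.96%), Ap2m1 at 1.30 (1.11 to 1.52), and 1 downward (1.43%), the phosphatase gene Synj2 at 0.754 (0.600 to 0.946). The medians of the log2 ratio over this list were 0.06, 0.03, 0.00 and 0.02, within 0.05 of the medians over all genes.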

How the data were processed

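The values deposited by the authors are raw UMI counts for each gene in each barcode, made from 10x Genomics 3′ v3.1 libraries on mm10, with Cell Ranger 8.0.1 per the file headers. The submitters' processing notes name Cell Ranger 4.0 and Seurat 4.4.0. No normalization was applied before deposit. Barcodes over 5% mitochondrial UMIs and doublets marked by scoring against simulated ones (2301, 11.4%, and 2136, 10.9%) were left out. Nuclei were scaled to 10000, clustered (30 principal components, 15 neighbours, Leiden resolution 1, leidenalg 0.10.2) into 47 clusters without the 35 genes and the vesicle cycle list, and 29 clusters were named from marker lists. UMIs were summed per class and library and divided by the class total. Log2 ratios used a pseudocount of 5 CPM. Ratio intervals were exact and scripts were tested on simulated data (Python 3.11.15, numpy 2.4.6, scipy 1.17.1). The genes, the vesicle cycle list and the comparisons were chosen with earlier results of these data known, and naming thresholds were set after seeing the data. All 35 genes are accounted for, with full values for those past the fold in 2 or more main classes, those with a class at 4 times the neuronal median or more in both libraries, and paralogue groups, and up to 4 genes of the vesicle cycle list per class. One gene of that list is not reported here.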

Additional observations from a re-analysis of the deposited data

How the results depend on the processing

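With 1 library per group, leaving out a replicate was not possible, and depth limits genes under 20 CPM in small classes. No paired analysis was possible because each group is 1 pooled library and no test was made. With median-of-ratios scaling the median log2 ratio of the release genes was -0.0322 in granule-like and -0.0324 in CA1-like nuclei, and 12 and 8 genes were higher in AAV-TAU in CA1-like and CA3-like nuclei. The count past the fold upward in inhibitory-like nuclei, 5, was 3 at Leiden resolution 2, 2 with nuclei thinned to 1500 UMIs and 3 with the nuclei above their class median of mitochondrial share left out. The other 131 values of counts and medians under the alternatives kept within 1.5 times or the spread. The ratio of Unc13c was 0.914 in CA1-like nuclei with doublets kept, and in inhibitory-like nuclei 0.660 at resolution 2 and 0.925 after thinning; the cause was not tested. Leaving out the CA1-like clusters led by Vwc2l and C1qtnf7, chosen after seeing the data, gave a ratio of 1.01 and 4 genes past the fold. Of the values for single genes, levels and shares, 261 were within the limits, 88 moved (65 of them on thinning) and 3 reversed. Over the alternatives the ratio of Vamp2 ran from 1.24 to 1.34 in granule-like, 1.42 to 1.65 in CA1-like, 1.34 to 1.65 in CA3-like and 1.23 to 1.45 in inhibitory-like nuclei, and that of Sncb from 1.39 to 1.62, 1.30 to 1.66, 1.34 to 1.72 and 1.20 to 1.41. Rab3a ran from 1.40 to 1.56 in granule-like, 1.14 to 1.38 in CA1-like and 1.22 to 1.56 in inhibitory-like nuclei, Cplx2 from 1.03 to 1.35 in inhibitory-like and Rph3a from 0.705 to 0.778 in CA3-like nuclei.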
